A study of Mus musculus with 6 samples.

Results

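The genes described here are 10 genes of the NRF2 and glutathione defence against oxidants and electrophiles: Nfe2l2, Keap1, Nqo1, Gclc, Gclm, Txnrd1, Srxn1, Gsr, Gstm1 and Prdx1. They were chosen by name, and their probe sets (groups of short oligonucleotide probes on an array) were taken where the platform annotation gave exactly 1 of these symbols. By that rule 9 of the 10 genes had a probe set of their own, 22 probe sets in all, and these 9 were among the 18193 genes so represented and among the 13090 tested. Prdx1 had none, because the 5 probe sets that list it also list the pseudogene Gm21399.

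RNA came from MVT1 cells, a mouse mammary tumour line that spreads to the lung, tagged with GFP, injected intravenously into syngeneic FVB/N mice (3000000 cells) and sorted from the lungs by their GFP. The study's question was how such cells change as metastases grow and when mice receive GW2580, an inhibitor of the CSF1 receptor, a kinase found chiefly on macrophages. The 6 arrays form 3 groups of 2: mice gavaged daily with GW2580 at 160 mg/kg and examined at 2 weeks after injection, mice gavaged with vehicle and examined at 2 weeks, and vehicle mice examined at 1 week. All groups carry the same tumour line and tag, gavage began 1 week after injection, and no label gives the ages of the mice. The 2 vehicle groups thus differ in length of gavage as well as in time since injection, and these cannot be told apart. Each vehicle group came from 2 mice per the design text. How many mice stood behind the GW2580 arrays is not stated, so p-values measure only the spread between these arrays, which may be technical. MVT1 is a single cell line, and sorting by GFP does not by itself remove RNA of lung or immune cells. Fewer cells of a type and less RNA per cell cannot be told apart in such samples.

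NRF2, the product of Nfe2l2, is a transcription factor that is held low in unstressed cells by KEAP1, an adaptor that directs it to degradation. When KEAP1 cysteines are modified by oxidants or electrophiles, NRF2 accumulates, pairs with small MAF proteins and binds antioxidant response elements near genes that make and use glutathione and thioredoxin. Its activity is therefore set largely by protein stability, which an RNA array does not measure.

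The antioxidant response element is shown where its core letters stood just ahead of these genes. The core TGACNNNGC was searched on both strands in the 250 bases before each annotated start, in RefSeq promoters of GRCm38.p6. Of the 8 genes matched in that table, 4 held it, in 4 of 11 promoters, beside 10.2% of all 32851 promoters and 11.5% of all 27025 genes. Gclc and Gsr had no entry there and were not searched. In the lines below, read 5′ to 3′ on the strand of the gene, capitals mark the core, which stands in reverse complement in Gclm, Prdx1 and Txnrd1.
Nfe2l2, chr2:75704879-75704913, minus strand: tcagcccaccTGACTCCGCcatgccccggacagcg
Gclm, chr3:122245407-122245447, plus strand: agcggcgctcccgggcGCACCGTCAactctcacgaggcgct
Prdx1, chr4:116685450-116685490, plus strand: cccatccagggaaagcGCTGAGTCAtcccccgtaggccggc
Txnrd1, chr10:82859098-82859138, plus strand: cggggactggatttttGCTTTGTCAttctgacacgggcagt
Gstm1, chr3:108017974-108018123, minus strand: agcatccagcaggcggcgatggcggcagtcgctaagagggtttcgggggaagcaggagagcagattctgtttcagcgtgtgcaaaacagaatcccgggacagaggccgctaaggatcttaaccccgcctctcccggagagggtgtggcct
The first base of the core lay 240 bases before the start in Nfe2l2, 134 in Gclm, 133 in Prdx1 and 92 in 1 of the promoters of Txnrd1. The Gstm1 line gives the 150 bases before the farther upstream of its starts, shown because this gene differed most between groups. These letters were not found in the windows of Gstm1, Keap1, Nqo1 and Srxn1. A match is a description of the sequence and no evidence of binding.

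Values are RMA log2 values, so a difference of 1 is 2-fold, and each gene is led by whichever of its probe sets averaged highest across all 6 arrays. A gene was called where limma gave a Benjamini-Hochberg adjusted p under 0.05 over the 13090 genes tested. Array medians lay between 5.57 and 5.63. The epithelial keratin genes Krt8 and Krt18 read at least 12.93 on every array, and Epcam lay between 6.85 and 7.31, whereas the epithelial cadherin gene Cdh1 averaged 3.67, below the filter of 4.97. Replicate 2 of the 2-week vehicle group stood apart in RNA quality. The 3′ minus 5′ difference there was 1.20 for beta-actin and 0.92 for GAPDH, while the remaining arrays gave 0.38 to 0.50 and -0.13 to -0.10. On that array 208 of 45037 probe sets lay at least 1 log2 unit below all other arrays, against 1 to 26 on the others, and 2 of the 208 belong to Keap1 and Txnrd1.

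**Figure D1:**
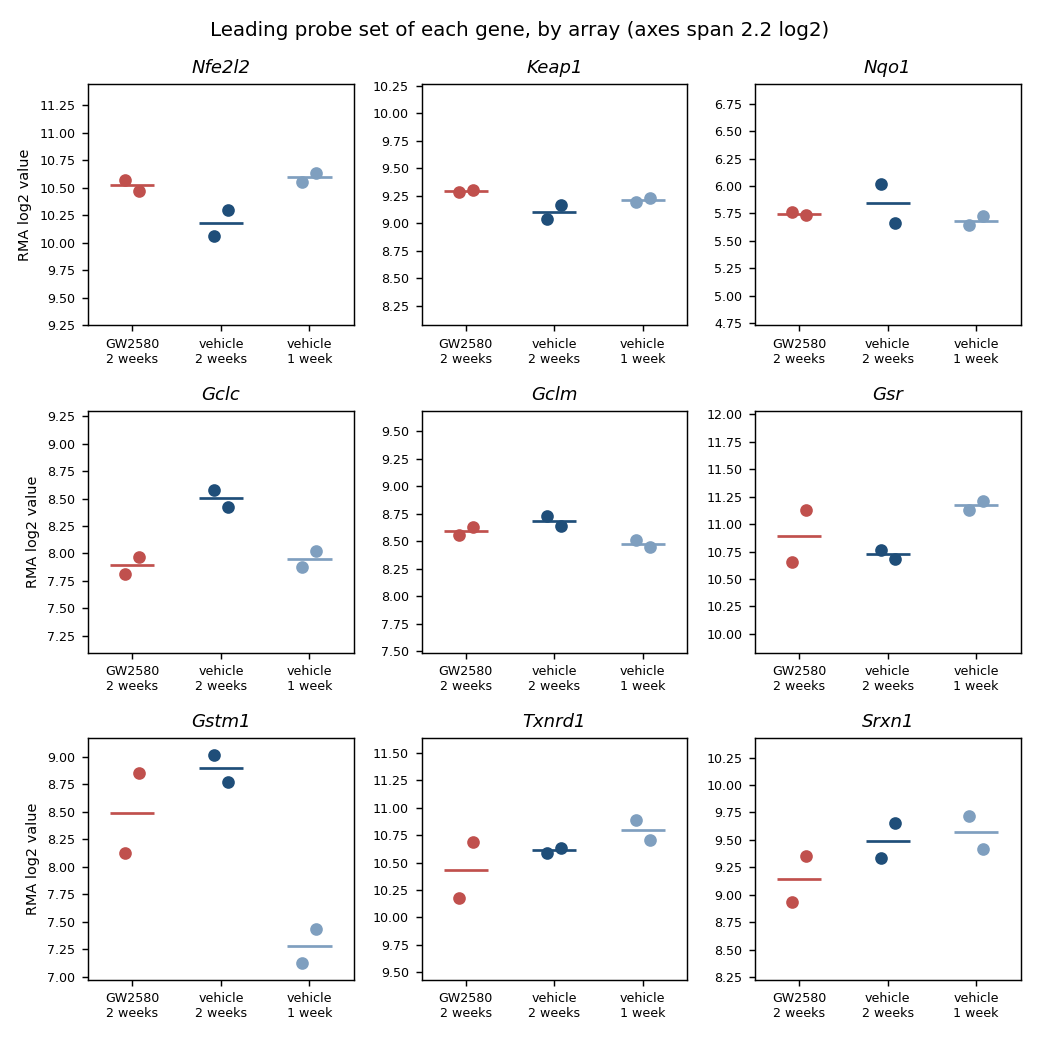
RMA log2 value of the leading probe set of each of the 9 measured genes, one panel per gene, with 1 point per array and a bar at each group mean. Groups run from GW2580 at 2 weeks on the left through vehicle at 2 weeks to vehicle at 1 week. Gstm1 is lowest on both 1-week arrays and Gclc is highest on both 2-week vehicle arrays.

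Gstm1 and Gclc were the 2 genes of the 9 that changed between vehicle arrays, both higher at 2 weeks than at 1 week, and 7 were not called (Nfe2l2 and Gsr were the others of 4 with an unadjusted limma p under 0.05, beside 23.6% of all genes). In that comparison 6.45% of all genes tested were called, 3.74% higher and 2.71% lower. The median log2 difference of the 9 genes was -0.07 and that over all genes tested was 0.02. None of the 9 was called between GW2580 and 2-week vehicle arrays, where 0.367% of all genes were called, and 2 of them, Gclc and Nfe2l2, had an unadjusted limma p under 0.05, as did 18.0% of all genes. Their median there was -0.09, beside -0.05 over all genes. Neither was any called between GW2580 and 1-week vehicle arrays (0.512% of all genes called), where 1 gene, Gstm1, had an unadjusted limma p under 0.05, as did 17.0% of all genes. The GW2580 and the time comparison share the 2-week vehicle arrays, so their differences are given side by side and were not correlated. The groups did not overlap for 7 of the 9 genes between vehicle arrays, beside 56.7% of all genes, for 4 between GW2580 and 2-week vehicle, beside 49.8%, and for 7 between GW2580 and 1-week vehicle, beside 46.7%. With 9 genes and 2 arrays a group, these counts are a description.

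**Figure D2:**
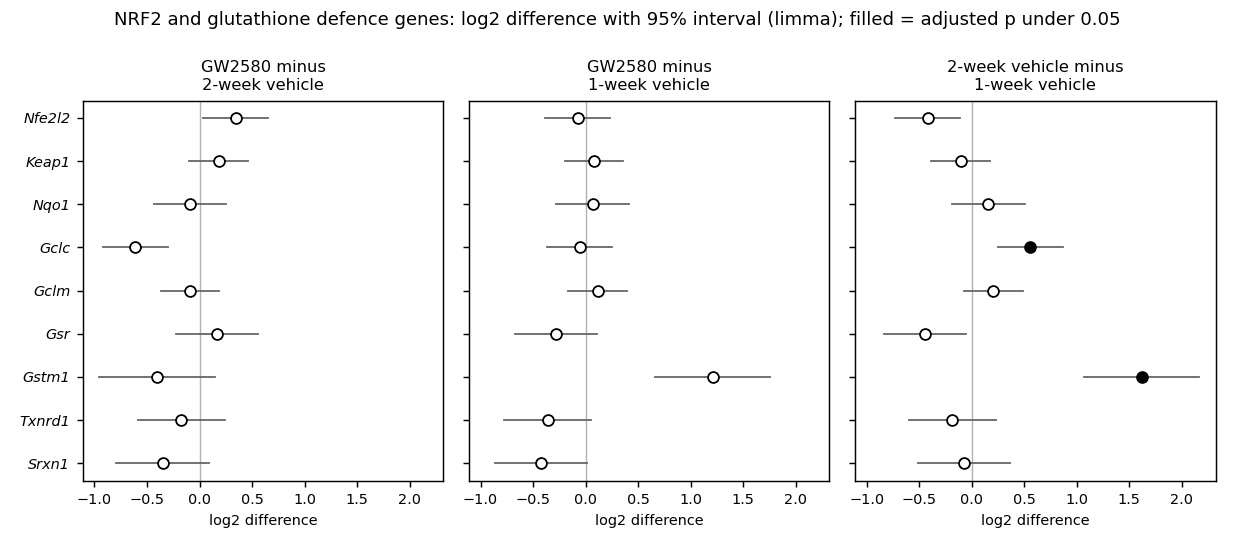
Log2 difference of each of the 9 genes with its 95% interval from limma, in separate panels for the 3 comparisons; a filled point marks an adjusted p under 0.05 over all genes tested. Gstm1 and Gclc are filled in the comparison of 2-week with 1-week vehicle, and no point is filled in the other panels.

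Among the regulators, the transcription factor gene Nfe2l2 gave opposite differences on its 2 probe sets. On the leading one, 1416543_at, it read 10.57 and 10.47 in GW2580 arrays, 10.06 and 10.29 in 2-week vehicle arrays, and 10.56 and 10.63 in 1-week vehicle arrays. The 2-week vehicle arrays were the lowest and overlapped neither other group. The 2-week minus 1-week vehicle difference was -0.42 (SE 0.13, adjusted p 0.107), and the GW2580 minus 2-week vehicle difference was 0.34 (SE 0.13, adjusted p 0.235). The other probe set, 1457117_at, read 5.99 and 5.71 in GW2580 arrays, 7.40 and 6.75 in 2-week vehicle arrays, and 5.46 and 5.78 in 1-week vehicle arrays. Here the 2-week vehicle arrays were the highest, again without overlap. In a fit over all 45037 probe sets, of which 2.39% were called between vehicle arrays, 0.429% between GW2580 and 2-week vehicle and 0.0799% between GW2580 and 1-week vehicle, it was higher by 1.45 at 2 weeks (SE 0.23, adjusted p 0.0274), and the GW2580 minus 2-week vehicle difference was -1.22 (adjusted p 0.0671). The mean of the probe sets of Nfe2l2 took the sign of the dimmer one, at 0.52 between vehicle arrays and -0.44 between GW2580 and 2-week vehicle. The direction of Nfe2l2 RNA is therefore uncertain.

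Keap1, which encodes the adaptor that binds NRF2 in the cytoplasm, varied little on its leading probe set. It read 9.28 and 9.30 in GW2580 arrays, 9.04 and 9.17 in 2-week vehicle arrays, and 9.20 and 9.23 in 1-week vehicle arrays. The 2-week vehicle arrays were the lowest and the GW2580 arrays the highest, without overlap. Its range over the 6 arrays was 0.26, and 11.3% of genes tested had a smaller one (the median gene's was 0.48). The difference was -0.10 between 2-week and 1-week vehicle (95% interval -0.38 to 0.18) and 0.18 between GW2580 and 2-week vehicle (95% interval -0.10 to 0.46), neither called. The other probe set, 1450747_at, read 8.33 and 8.58 in GW2580 arrays, 8.28 and 4.84 in 2-week vehicle arrays, and 8.19 and 8.31 in 1-week vehicle arrays. The single low value belongs to the array with the raised 3′ to 5′ differences, and what part RNA quality has in it was not tested. With that value in, this probe set differed by -1.69 between vehicle arrays and by 1.90 between GW2580 and 2-week vehicle (SE 0.88, adjusted p 0.406 and 0.365).

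**Figure D3:**
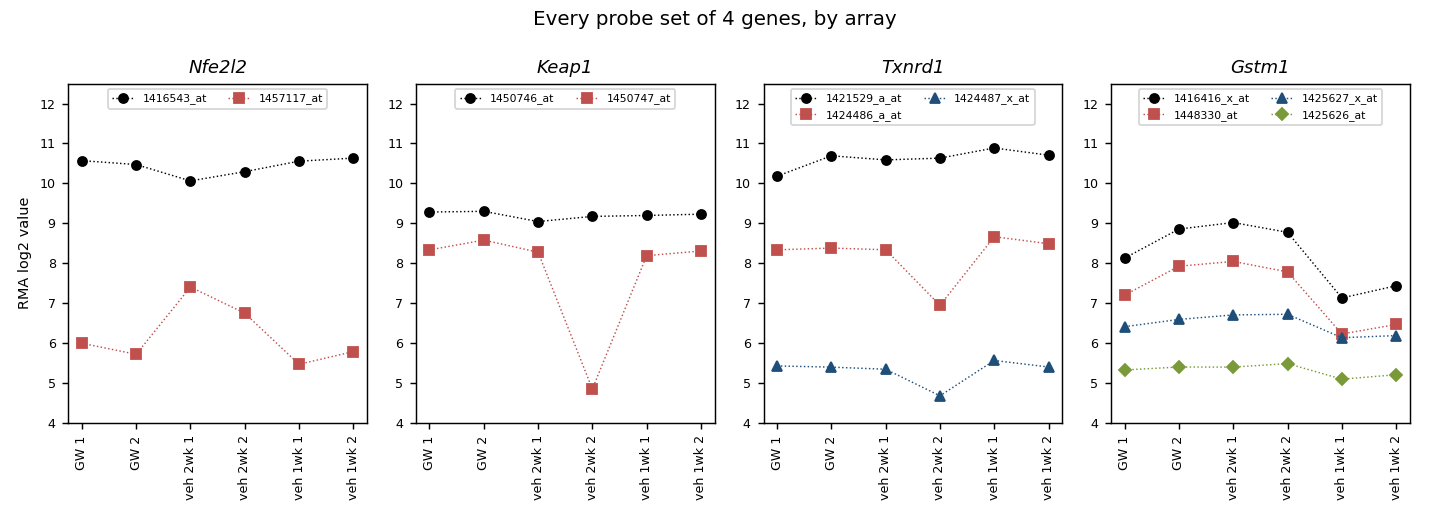
RMA log2 values of every probe set of Nfe2l2, Keap1, Txnrd1 and Gstm1 on the 6 arrays, in the order GW2580, 2-week vehicle and 1-week vehicle; dotted lines join the values of a probe set and carry no order of time. The probe sets of Nfe2l2 move in opposite directions, 1 probe set each of Keap1 and Txnrd1 drops on replicate 2 of the 2-week vehicle group, and the 4 of Gstm1 are all lower on both 1-week arrays than on both 2-week vehicle arrays.

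Glutathione is made in a first, rate-limiting step by glutamate-cysteine ligase, whose catalytic subunit is encoded by Gclc and whose modifier subunit by Gclm. Gclc read 7.82 and 7.97 in GW2580 arrays, 8.58 and 8.43 in 2-week vehicle arrays, and 7.87 and 8.02 in 1-week vehicle arrays. Both 2-week vehicle arrays were above all 4 others, and the GW2580 and 1-week arrays overlapped. Gclc rose 1.47-fold in 2-week vehicle arrays, to 8.50 ± 0.11, against 7.95 ± 0.10 in 1-week vehicle arrays (SD, n = 2 each; log2 difference 0.56, SE 0.13, adjusted p 0.0495). It averaged 7.89 ± 0.11 in GW2580 arrays (SD, n = 2), a GW2580 minus 2-week vehicle difference of -0.61 (SE 0.13, 95% interval -0.92 to -0.30), which did not pass at an adjusted p of 0.0889. GW2580 minus 1-week vehicle was -0.06 (95% interval -0.36 to 0.25). The other probe set, 1455959_s_at, gave 0.48 between vehicle arrays and -0.63 between GW2580 and 2-week vehicle (adjusted p 0.0903 and 0.0748 over all probe sets). The call stands at the threshold. It was lost without a filter on low values (adjusted p 0.0528), with all probe sets tested (0.0756) and with a trend in the variance prior (0.057). Leaving out any 1 of the 4 vehicle arrays also lost it. The difference lay between 0.48 and 0.63 under scaling, the mean of probe sets and the omission of single vehicle arrays. The other alternatives cannot change a difference of group means.

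The surfactant gene Sftpd, a marker of alveolar type II cells of the lung, was ordered over the groups as Gclc was. It read 6.10 and 6.28 in GW2580 arrays, 7.50 and 7.13 in 2-week vehicle arrays, and 6.38 and 6.48 in 1-week vehicle arrays, with differences of 0.89 between vehicle arrays (adjusted p 0.0251) and -1.12 between GW2580 and 2-week vehicle (adjusted p 0.0445). Of the 10 lung epithelium markers tested, Sftpd was the 1 called between vehicle arrays, and Sftpd and Sftpa1 were called, both lower, between GW2580 and 2-week vehicle. Most of the list went the way of Gclc: 7 of 10 were higher in 2-week than in 1-week vehicle arrays (median 0.14, beside 0.02 over all genes), and 7 of 10 were lower in GW2580 than in 2-week vehicle arrays (median -0.44, beside -0.05). In these comparisons Sftpc differed by 0.80 and -2.07, Sftpa1 by 0.62 and -1.78, and Ager, a marker of alveolar type I cells, by 0.71 and -0.69. The club cell marker Scgb1a1 went the other way, at 10.91 and 7.59 in GW2580 arrays, 6.49 and 8.08 in 2-week vehicle arrays, and 11.31 and 9.59 in 1-week vehicle arrays. The summed level of the 10, Scgb1a1 included, was 11.72 and 10.33 in GW2580 arrays, 11.33 and 11.08 in 2-week vehicle arrays, and 12.05 and 11.35 in 1-week vehicle arrays, and 0 of them were at 0. The part of lung epithelial RNA in the Gclc difference was not tested.

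Gclm, the modifier subunit, read 8.56 and 8.63 in GW2580 arrays, 8.73 and 8.64 in 2-week vehicle arrays, and 8.51 and 8.45 in 1-week vehicle arrays. Its 2-week vehicle arrays were the highest and its 1-week arrays the lowest, without overlap but within a range of 0.29. The difference was 0.21 between vehicle arrays (95% interval -0.07 to 0.49, adjusted p 0.355) and -0.09 between GW2580 and 2-week vehicle (95% interval -0.37 to 0.19, adjusted p 0.735), and neither passed. On the dimmer probe set, 1439050_at, the differences had the same signs and were larger, at 0.63 and -0.41 (adjusted p 0.0665 and 0.238 over all probe sets). The 5 genes whose centred profile over the 6 arrays was closest to that of Gclm were Sem1, Kcnj13, Uqcrc2, Mrpl54 and Kremen1, with root mean square differences of 0.023 to 0.031 log2 units. In so narrow a range and over 6 arrays, this likeness is a description.

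Gsr encodes glutathione reductase, which returns oxidised glutathione to its reduced form with NADPH. It read 10.65 and 11.13 in GW2580 arrays, 10.77 and 10.69 in 2-week vehicle arrays, and 11.13 and 11.21 in 1-week vehicle arrays. The vehicle groups did not overlap, the 2-week arrays being lower by 0.45 (SE 0.17, adjusted p 0.16), and the GW2580 arrays spanned both 2-week vehicle values. GW2580 minus 2-week vehicle was 0.16 (95% interval -0.23 to 0.56) and turned to -0.075 without GW2580 replicate 2. The other probe set of Gsr gave -0.17 between vehicle arrays and -0.14 between GW2580 and 2-week vehicle.

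Gstm1 encodes a mu-class glutathione transferase, which joins glutathione to electrophiles. It read 8.13 and 8.85 in GW2580 arrays, 9.02 and 8.77 in 2-week vehicle arrays, and 7.13 and 7.43 in 1-week vehicle arrays. All 4 arrays from 2 weeks lay above both from 1 week, and GW2580 and 2-week vehicle overlapped. Gstm1 rose 3.06-fold in 2-week vehicle arrays, to 8.90 ± 0.17, against 7.28 ± 0.22 in 1-week vehicle arrays (SD, n = 2 each; log2 difference 1.62, SE 0.24, adjusted p 0.0157). Its range over the 6 arrays, 1.89, exceeded that of 98.7% of genes tested. The GW2580 arrays averaged 8.49 ± 0.51 (SD, n = 2), and GW2580 minus 2-week vehicle was -0.40 (95% interval -0.95 to 0.14, adjusted p 0.408). GW2580 minus 1-week vehicle was 1.21 (SE 0.24, adjusted p 0.0716), not called. It lay between 0.75 and 1.57 under 15 alternative settings and passed under 2 of them. These were the omission of GW2580 replicate 1 (1.57) and a fit with replicate number as a block.

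On its other 3 probe sets Gstm1 differed between 2-week and 1-week vehicle by 1.57 (1448330_at, adjusted p 0.0244 over all probe sets), 0.55 (adjusted p 0.0647) and 0.29 (adjusted p 0.282). All 4 had the same sign, and the smaller differences were on the dimmer probe sets. The call of Gstm1 was kept under 13 of 15 alternatives and lost without 2-week vehicle replicate 1 (1.49, adjusted p 0.0772) and without 1-week vehicle replicate 1 (1.46, adjusted p 0.167), a limma fit in which 0 genes passed and 1630 had an unadjusted p under 0.05. Among the 15, the fit of the 4 vehicle arrays alone and the fits that left out a GW2580 array were the same fit. Each of them was counted, so the 15 are not all distinct. Mu-class transferases are close in sequence, so probes may be shared between them. The paralogs Gstm2, Gstm3, Gstm4, Gstm5 and Gstm7 differed between vehicle arrays by 0.14, 0.01, 0.27, 0.89 and -0.23, and none was called (smallest adjusted p 0.0751, for Gstm5). Neutrophil markers, 6 with a probe set, summed to 8.69 and 10.15 in GW2580 arrays, 10.04 and 10.72 in 2-week vehicle arrays, and 9.01 and 9.35 in 1-week vehicle arrays, none of them at 0. Like Gstm1, they were lower on GW2580 replicate 1 than on replicate 2 and lower at 1 week than at 2 weeks in vehicle mice, but between the 2-week vehicle arrays they ran opposite to Gstm1. The sum of 14 macrophage and monocyte markers had the same traits, at 11.75 and 12.41 in GW2580 arrays, 12.12 and 12.32 in 2-week vehicle arrays, and 11.85 and 12.01 in 1-week vehicle arrays. Both sums are weighted to the brightest markers, and 2 of the 6 neutrophil markers lay below the filter. Taken singly, 6 of the 13 macrophage and monocyte markers tested were higher and 7 lower in 2-week than in 1-week vehicle arrays. Their median was -0.07, beside 0.02 over all genes. Of these 13, 0 were called in any comparison and none was at 0. Between vehicle arrays 2 had an unadjusted limma p under 0.05, beside 23.6% of all genes. Of the 4 neutrophil markers tested, 0 were called and 1 had an unadjusted limma p under 0.05 between vehicle arrays, beside 23.6% of all genes. Singly, 3 of these 4 were higher and 1 lower in 2-week than in 1-week vehicle arrays (median 0.56, beside 0.02 over all genes). The part of either cell type in Gstm1 was not tested.

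In the thioredoxin arm, Txnrd1 encodes the cytosolic thioredoxin reductase. It read 10.18 and 10.69 in GW2580 arrays, 10.59 and 10.63 in 2-week vehicle arrays, and 10.89 and 10.71 in 1-week vehicle arrays. The GW2580 arrays lay on both sides of the 2-week vehicle arrays, and the 1-week arrays were above all others. None of its differences passed: -0.19 between vehicle arrays (95% interval -0.60 to 0.23), -0.18 between GW2580 and 2-week vehicle (95% interval -0.59 to 0.24) and -0.36 between GW2580 and 1-week vehicle (adjusted p 0.352). Its probe set 1424486_a_at read 8.33 and 8.38 in GW2580 arrays, 8.34 and 6.94 in 2-week vehicle arrays, and 8.66 and 8.49 in 1-week vehicle arrays. The low value was again on 2-week vehicle replicate 2, and the dimmest probe set, 1424487_x_at, was also lowest there, at 4.67 against 5.34 to 5.56 elsewhere. Averaging the probe sets of Txnrd1 turned GW2580 minus 2-week vehicle to 0.31, with that low value included.

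Srxn1 encodes sulfiredoxin, which repairs overoxidised peroxiredoxins. It read 8.94 and 9.35 in GW2580 arrays, 9.34 and 9.65 in 2-week vehicle arrays, and 9.72 and 9.42 in 1-week vehicle arrays. Neighbouring groups overlapped, with GW2580 the lowest on average. The difference was -0.07 between vehicle arrays (95% interval -0.51 to 0.37), -0.35 between GW2580 and 2-week vehicle (95% interval -0.79 to 0.09) and -0.42 between GW2580 and 1-week vehicle (95% interval -0.86 to 0.02), none called. On the other 3 probe sets the differences ranged between -0.26 and 0.02 for the vehicle arrays and between -0.18 and -0.05 for GW2580 minus 2-week vehicle.

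Prdx1 encodes an abundant cytosolic peroxiredoxin that reduces peroxides with electrons from thioredoxin. Its RNA cannot be told apart from that of Gm21399 on the 5 shared probe sets, so no value was assigned to it. In the fit over all probe sets these differed by -0.39 to -0.15 between 2-week and 1-week vehicle, by -0.17 to 0.09 between GW2580 and 2-week vehicle, and by -0.32 to -0.23 between GW2580 and 1-week vehicle. None of the 5 was called in any of these comparisons.

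Nqo1 encodes a quinone reductase that is widely used as a readout of NRF2 activity. Its single probe set read 5.76 and 5.73 in GW2580 arrays, 6.02 and 5.66 in 2-week vehicle arrays, and 5.64 and 5.72 in 1-week vehicle arrays. One 2-week vehicle array, replicate 1, stood above the rest, and the other lay within the 1-week values. The difference was 0.16 between vehicle arrays (95% interval -0.18 to 0.50), and without that array it was -0.019. GW2580 minus 2-week vehicle was -0.09 (95% interval -0.44 to 0.25), and without that array it was 0.085. GW2580 minus 1-week vehicle was 0.07 (95% interval -0.28 to 0.41). At a mean of 5.76 Nqo1 lay above the filter of 4.97 and below the stricter one of 6.37 used as an alternative. By centred profile the closest genes to Nqo1 were 2810408A11Rik, 4930562F07Rik, Traf4, Aim2 and Gtf2h4 (root mean square difference 0.025 to 0.043 log2 units over 6 arrays), none of them among the listed pathway genes.

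The other genes of the pathway were taken from 7 lists of 97 genes, none of which holds the 10 above. Of the 97, 89 had a probe set of their own and 83 were tested; Slc7a11, the cystine importer subunit, averaged 4.44 and was left out with 5 others below the filter. Between 2-week and 1-week vehicle, 4 of the 83 rose and 2 fell, beside 6.45% called over all genes, and the median difference was 0.11, beside 0.02 over all genes. Between GW2580 and 2-week vehicle 0 of the 83 passed with limma (smallest adjusted p 0.053, for Txnrd3), beside 0.367% over all genes, and 15 had an unadjusted p under 0.05, beside 18.0% of all genes. Between GW2580 and 1-week vehicle 0 passed, beside 0.512% over all genes, and 20 had an unadjusted p under 0.05, beside 17.0% of all genes.

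**Figure D4:**
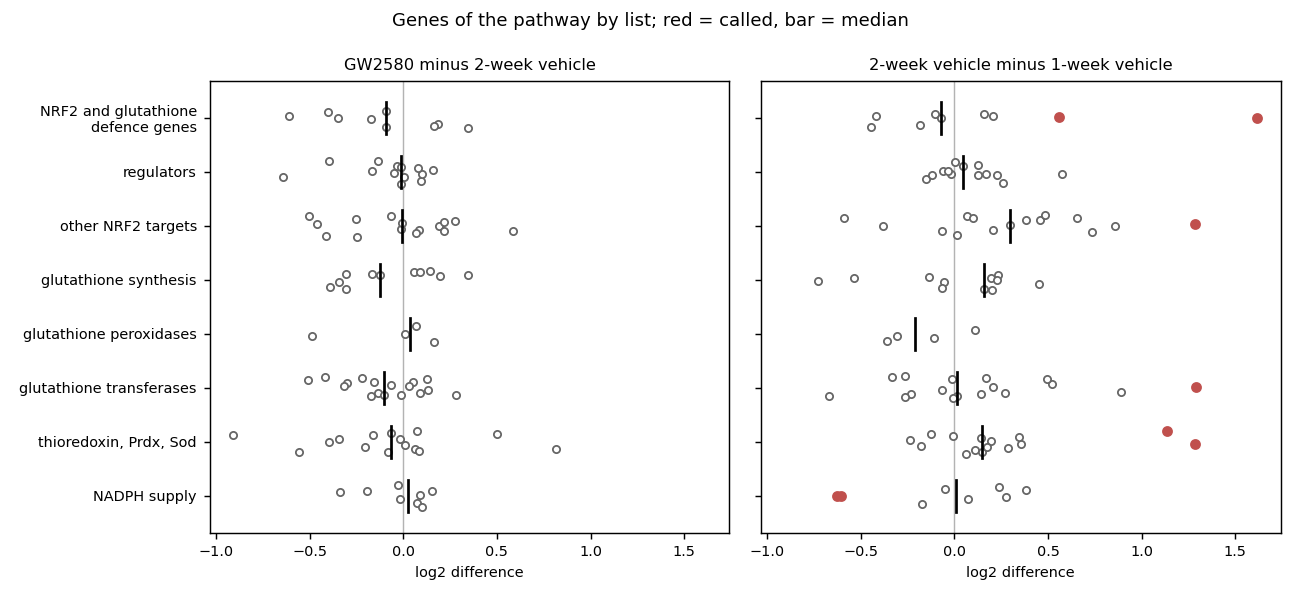
Log2 difference of every tested gene of each list, 1 point per gene with a bar at the list's median, for GW2580 minus 2-week vehicle and 2-week minus 1-week vehicle; filled points passed an adjusted p of 0.05 over all genes tested. Between vehicle arrays the filled points are Gstm1 and Gclc among the NRF2 and glutathione defence genes and 6 genes of the other lists, and no point is filled for GW2580 minus 2-week vehicle.

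Of 17 glutathione transferase genes tested (median 0.01), 1 rose and 0 fell between vehicle arrays, beside 3.74% and 2.71% of all genes. That gene, Mgst1, encodes a membrane-bound transferase, and read 9.45 and 9.85 in GW2580 arrays, 10.18 and 10.14 in 2-week vehicle arrays, and 9.04 and 8.70 in 1-week vehicle arrays. Its groups were fully separated, with a difference of 1.29 between vehicle arrays (SE 0.18, adjusted p 0.0135), and GW2580 minus 2-week vehicle was -0.51 (adjusted p 0.197). Its other probe set, at a mean of 3.65, gave -0.30 between vehicle arrays. Of 15 other NRF2 target genes, 1 rose, beside 3.74% of all genes: Ephx1, which encodes microsomal epoxide hydrolase. It read 10.03 and 10.14 in GW2580 arrays, 10.05 and 9.74 in 2-week vehicle arrays, and 8.16 and 9.07 in 1-week vehicle arrays, a difference of 1.28 between vehicle arrays (SE 0.27, adjusted p 0.0357). The median of these 15 was 0.30 between vehicle arrays, 0.26 after scaling to a common 75th percentile, and 14 of them were not called. Hmox1, which encodes the haem-degrading enzyme heme oxygenase and was chosen after its values were seen, read 8.94 and 10.45 in GW2580 arrays, 8.84 and 9.39 in 2-week vehicle arrays, and 8.40 and 8.11 in 1-week vehicle arrays, and was not called in any comparison.

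Of 15 thioredoxin, peroxiredoxin and superoxide dismutase genes, 2 rose between vehicle arrays and 0 fell, beside 3.74% and 2.71% of all genes. Txnrd3, a thioredoxin reductase best known from testis, read 6.78 and 7.07 in GW2580 arrays, 7.77 and 7.90 in 2-week vehicle arrays, and 6.64 and 6.77 in 1-week vehicle arrays. It rose by 1.13 (SE 0.14, adjusted p 0.0112) in 2-week vehicle arrays, by 1.00 and 1.13 on its other probe sets, while Txnrd1 did not pass. GW2580 minus 2-week vehicle was -0.91 (adjusted p 0.053), and passed under 5 of 15 alternatives (0.0314 to 0.20 over all of them). The other, Sesn1, a stress-induced sestrin gene, rose by 1.29 (adjusted p 0.0183).

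Of 8 genes that supply NADPH, 0 rose and 2 fell between vehicle arrays, beside 3.74% and 2.71% of all genes. In lists this small, such counts are a description. Taldo1, which encodes transaldolase of the pentose phosphate pathway, read 10.42 and 10.44 in GW2580 arrays, 10.35 and 10.36 in 2-week vehicle arrays, and 11.08 and 10.89 in 1-week vehicle arrays, a fall of 0.63 (adjusted p 0.0331). Me1, which encodes cytosolic malic enzyme, fell by 0.61 (adjusted p 0.0378), and its other probe set gave -0.27. Calls between vehicle arrays were kept under 13 of 15 alternatives for Txnrd3 and Sesn1, 11 for Mgst1, Ephx1 and Taldo1, and 9 for Me1. Some of these alternatives are the same fit. Mgst1 and Me1 lost the call with the mean of probe sets, and Ephx1 and Me1 with all probe sets tested. None of the 13 regulators of NRF2 tested was called, with a median of 0.04 between vehicle arrays: Rbx1, a RING subunit of the ligase that KEAP1 serves, differed by 0.57 between vehicle arrays and -0.64 between GW2580 and 2-week vehicle (adjusted p 0.102 and 0.135), and its scaffold Cul3 by 0.04 and -0.40. The other probe sets of Cul3 gave -0.49 to 0.01 between vehicle arrays and -0.25 to 0.06 between GW2580 and 2-week vehicle. None of 11 genes of glutathione synthesis and turnover was called. Chac1, a glutathione-degrading enzyme, differed by -0.53 between vehicle arrays (adjusted p 0.0583). Ggct, which encodes a cyclotransferase of gamma-glutamyl peptides, differed by -0.39 between GW2580 and 2-week vehicle (adjusted p 0.206), and its other probe sets gave 0.10 and -0.12. None of 4 glutathione peroxidase genes was called, with Gpx8, an endoplasmic reticulum member, at -0.36 between vehicle arrays (adjusted p 0.127) and Gpx3, the secreted plasma form, at -0.49 between GW2580 and 2-week vehicle (adjusted p 0.111). Leaving out single vehicle arrays lowered the number called among the 83 along with that over all genes, 844. Without 2-week vehicle replicate 1 it was 1, Txnrd3 (115 over all genes), and without its replicate 2 it was 3 (157 over all genes). Without 1-week vehicle replicate 1 it was 0, where limma called 0 of all genes and 1630 had an unadjusted p under 0.05. With 1-week vehicle replicate 2 left out it was 5 (413 over all genes), among them Mgst1, Ephx1, Txnrd3 and Sesn1.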

How the data were processed

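GFP-positive cells from 6 samples were measured on Affymetrix mouse arrays, from 2 µg of total RNA each, per the labels' protocols. The authors deposited RMA log2 values; the submitters' processing notes name the method without a version. RMA corrects background, quantile-normalises and summarises probes, which hides any change common to nearly all genes. Precision is limited by the number of arrays, which have no read depth.

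From 45101 probe sets, 64 controls were left out. Of the other 45037, 34945 had 1 symbol, 932 several and 9160 none, and 34741 matched RefSeq (GRCm38.p6) by gene ID. A gene was represented by its probe set with the highest mean, and those below the 40th percentile (4.97) were left out. The test was limma 3.58.1 in R 4.3.3: a mean per group over all 6 arrays, eBayes without trend, 3 residual and 4.97 prior degrees of freedom, Benjamini-Hochberg over 13090 genes. Adjusted p-values and standard errors come from that fit, or, for single further probe sets, from the same fit over 45037. The procedure was tested on simulated data.

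The 10 genes and the lists were chosen with earlier results of these data known. Named from each list were up to 4 called genes whose groups did not overlap, or else the 2 with the smallest p. Alternatives changed the filter, scaling, probe set summary, variance prior, arrays fitted and replicate block, and left out each array in turn. For each comparison, the fit of its 4 arrays alone and the fits without an array of the group not compared were the same fit. Each of them is counted among the 15 alternatives, which are therefore not all distinct.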

Additional observations from a re-analysis of the deposited data

How the results depend on the processing

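Of 402 differences of the 9 genes recomputed under the alternatives, 379 kept their direction and their side of the threshold. Another 9 lost a call, 2 gained one and 12 turned sign, and the cause was not tested. Only scaling, the probe set summary and leaving out an array of a compared group can change a difference of group means. Under the other alternatives the direction was fixed in advance, and only the call could change. Between vehicle arrays, 1 of the 9 genes was called without a filter, with all probe sets and with a variance trend, against 2, and the mean of probe sets gave a median of 0.16. Between GW2580 and 2-week vehicle, the 48 genes called became 74 without a filter, 193 probe sets when all were tested, 75 with a trend, 81 with a robust prior and 0 in a fit of those 4 arrays alone (2120 at an unadjusted p under 0.05). The other pathway genes called there, 0, became 1 without a filter, at the 75th percentile and with the robust prior. The median of the 9 genes there was -0.19 with the mean of probe sets. Between GW2580 and 1-week vehicle, the 67 genes became 36 probe sets when all were tested and 24 genes with 4 arrays. The other pathway genes called in that comparison became 1 at the 75th percentile, with a trend and with the robust prior. For the 9 genes the median became 0.066 with the mean of probe sets.

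The mean of probe sets turned Nfe2l2 to 0.52 between vehicle arrays, -0.44 for GW2580 minus 2-week vehicle and 0.078 for GW2580 minus 1-week vehicle, and turned Txnrd1 to 0.31 for GW2580 minus 2-week vehicle. With each array left out in turn, GW2580 minus 2-week vehicle ranged between -0.43 and 0.081 for Txnrd1, turned by GW2580 replicate 1, between -0.075 and 0.40 for Gsr, turned by GW2580 replicate 2, and between -0.27 and 0.085 for Nqo1, turned by 2-week vehicle replicate 1. Between vehicle arrays Nqo1 ranged between -0.019 and 0.34, turned by the same array, and Srxn1 between -0.23 and 0.083, turned by replicate 1 of either vehicle group. GW2580 minus 1-week vehicle of Gclc ranged between -0.13 and 0.019, turned by GW2580 replicate 1 and by 1-week vehicle replicate 2.

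Over the same 6 omissions, genes called between vehicle arrays numbered 0 to 1059, those for GW2580 minus 2-week vehicle 0 to 167, and those for GW2580 minus 1-week vehicle 0 to 169. Of the 9 genes, 0 to 2, 0 to 0 and 0 to 1 were called in these comparisons, and of the other pathway genes 0 to 9, 0 to 1 and 0 to 1. The medians of the 9 lay between -0.17 and 0.078, -0.15 and -0.041, and -0.11 and 0.019. Where a group was left with 1 array, its spread was taken to be that of the other groups.

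Same-numbered arrays had deviations correlated at 0.0094 between GW2580 and 2-week vehicle and at 0.0022 between the vehicle groups. Between GW2580 and 1-week vehicle the correlation was 0.292. The numbers were not taken to pair arrays, a choice that is less certain for GW2580 and 1-week vehicle. The replicate block gave 1223 genes, 2 of the 9 and 9 other pathway genes between vehicle arrays. For GW2580 minus 2-week vehicle the replicate block gave 154 genes and 1 other pathway gene, and for GW2580 minus 1-week vehicle 182 genes, 1 of the 9 (Gstm1, adjusted p 0.0487) and 2 other pathway genes.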
